A study of Homo sapiens with 4 samples.

Results

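Footprints of cytosolic ribosomes on nuclear genes were compared between GC7 and DMSO in senescent fibroblasts. BJ-Ras-ER cells are human BJ fibroblasts that carry hTERT and an oncogenic H-Ras that 4-hydroxytamoxifen (4-OHT) switches on. Oncogene-induced senescent (OIS) cells had received 100 nM 4-OHT for 12 days, and OIS GC7 cells were in addition exposed to 10 µM GC7 for 18 h, while OIS DMSO cells received the solvent. The members are the 2 OIS libraries of the 4 in the series, 1 per condition, and in them the 11128 nuclear features, of 57820 features in all, with at least 40 counts summed over the 4 libraries. Proliferating cells of the same line, without 4-OHT and with the same pair of treatments, are the other 2 libraries and are given beside the OIS values. All 4 conditions therefore share the hTERT and Ras-ER background of a single engineered line, and the state called senescent is the one produced by this oncogene only.

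GC7 blocks deoxyhypusine synthase (DHPS), the first of the enzymes that turn a lysine of eIF5A into hypusine, a residue made from the polyamine spermidine. Hypusinated eIF5A binds ribosomes and helps them past stretches that form peptide bonds poorly, such as runs of proline. In ribosome profiling, the mRNA pieces covered by ribosomes are counted, so a gene's count follows both the amount of its mRNA and how many ribosomes sit on it. No RNA-seq was used here, so these contributions cannot be told apart, and a count per gene keeps no position of a stalled ribosome.

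Ratios are GC7 over DMSO on the log2 scale after TMM scaling over the nuclear features, with a prior count of 1 and a 95% exact counting interval. Where a pair of counts stands without a condition, the first is OIS DMSO and the other OIS GC7, and a ratio introduced by "against" is that of proliferating cells. A feature is called higher or lower where its ratio is at least 2-fold and the interval excludes equal levels. Each condition has a single library, so a ratio cannot be set against replicate spread, p-values are left out, and the intervals cover counting error only. Counts on the nuclear features were 2669516 in OIS DMSO cells and 4854119 in OIS GC7 cells, which were 87.84% and 99.86% of all counts in those libraries, and the rest lay on the mitochondrial genome. All 12 fibroblast markers were measured, among them COL1A2 with 27860 counts with DMSO and 39237 with GC7 in OIS cells. The defining markers EPCAM (epithelium), CDH5 (endothelium), and PTPRC, CD3E and HBB (blood) were at 0 to 2 counts in either OIS library. Of the 10 epithelial, 9 endothelial and 10 blood markers with a name, 6 passed the count filter, among them KRT18 with 101 and 207 counts, EGFL7 with 35 and 148 and CD14 with 334 and 830. A part of other cell types in the results was not tested. The files hold Ensembl numbers with no gene names. Symbols were therefore assigned from knowledge of those numbers and kept only where the position relative to neighbouring genes fitted, which gave 1153 of the 11128 features a name, and all statements on named genes are limited to these.

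Over the 11128 nuclear features, 393 were called higher with GC7 in OIS cells (3.53%) and 306 lower (2.75%). In proliferating cells, 385 were higher (3.46%) and 231 lower (2.08%). The median log2 ratio of all features was 0.01 in OIS and 0.02 in proliferating cells. In OIS cells 5% of the features lay below -0.86 and 5% above 1.06. Of the 393 features higher in OIS cells, 34 were also higher in proliferating cells (3.46% of all features were), 13 were lower there and 346 were neither. Of the 306 lower in OIS cells, 42 were also lower in proliferating cells (2.08% of all features were), 10 were higher and 254 were neither. The called features were sparse, with a median of 51 OIS counts for those higher and 56.5 for those lower against 178 for all features, and for only 28 higher and 81 lower features did the whole interval lie past 2-fold. The split between higher and lower calls depended on the scaling. When libraries were scaled by their total count in place of TMM, 650 features were higher and 187 lower, and the median of all features moved to 0.19. At a 1.5-fold limit, 7.77% of the features were higher and 7.83% lower in OIS cells. The 44 gene lists hold 1084 symbols, of which 1078 were found in the files and 965 passed the count filter, and a gene could pass it through any library, so a list's counts cover its measured members only.

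The lowest ratios belonged to sequences related to mitochondrial DNA and to DICER1. Among named genes with at least 200 OIS counts, at least 500 exonic bases and an interval excluding equal levels, the 5 lowest were MTATP6P1, MTND2P28, MTRNR2L10, MTCYBP18 and MTND4P12. These are nuclear copies of mitochondrial genes, and reads from the mitochondrial genome can be assigned to them, so these counts are uncertain. MTATP6P1, on chromosome 1, had 1802 counts with DMSO and 19 with GC7 in OIS cells (log2 ratio -7.52, interval -8.35 to -6.97), and MTND4P12, on chromosome 5, had 406 and 10 (-6.21). In proliferating cells the ratios of MTATP6P1 and MTND4P12 were -7.61 and -6.51, so these copies were lower with GC7 in both states.

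DICER1, the nuclease that cuts microRNA precursors, had 64225 counts with DMSO and 2842 with GC7 in OIS cells. Those were 2.41% of the counts on the 11128 features with DMSO and 0.0588% with GC7. The log2 ratio was -5.55 (interval -5.60 to -5.49), or 46.7-fold lower with GC7. DICER1 was lower with GC7 in proliferating cells too, from 14113 to 1335 counts (-4.07, interval -4.15 to -3.99), and the ratio in OIS cells was lower by 1.48 on the log2 scale than that in proliferating cells. Where on the DICER1 locus (chr14:95552565-95624347, hg19) these fragments lie cannot be read from a count per gene. Whether they are footprints on its coding sequence is therefore uncertain. TAT, a liver enzyme that breaks down tyrosine, had 200 and 19 counts (-4.35), and PPFIBP2, a scaffold protein of the liprin family, had 245 and 61 (-3.03). Both were also lower in proliferating cells, at -3.55 and -1.91. Where the fragments lie on TAT is likewise unknown, so its counts are uncertain too.

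After these came genes with very long mRNAs. DST, which encodes dystonin, a linker between cytoskeletal filaments with 41453 exonic bases, had 2392 counts with DMSO and 1298 with GC7 in OIS cells (-1.93, interval -2.03 to -1.83). SYNE1, which encodes a giant nesprin of the nuclear envelope with 45649 exonic bases, had 668 and 446 (-1.63). DYNC1H1, the heavy chain of cytoplasmic dynein, had 5723 and 3666 counts (-1.69), AHNAK 12300 and 7950 (-1.68), DYNC2H1, the dynein heavy chain of cilia, 272 and 146 (-1.94), and FRAS1, an extracellular matrix protein, 380 and 253 (-1.63). None of these 6 long genes was called in proliferating cells, where their ratios lay between -0.37 and 0.34. MZF1, a zinc finger factor, completed the lowest 15 with 860 and 526 counts (-1.75), and 17.7% of its exonic bases overlap another feature.

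Enzymes that make serine, use it or feed one-carbon metabolism filled 5 of the highest 15 places, those of ALDH1L2, PSPH, PHGDH, CBS and PSAT1. SMAD6, an inhibitor of BMP signalling, had 111 counts with DMSO and 616 with GC7 in OIS cells (1.42, interval 1.13 to 1.73). In proliferating cells SMAD6 had 180 and 266 counts (-0.10), and the difference between the states was 1.52 (interval 1.12 to 1.92). LINC00963, a long non-coding RNA, had 26 and 175 counts (1.68). RPS29, a protein of the small ribosomal subunit, had 36 and 178 (1.24), ATP5F1E, the epsilon subunit of ATP synthase, had 172 and 818 (1.20), and 26.1% and 23.2% of their exonic bases overlap another feature. The others of the highest 15 were PLEKHO2, C1orf122, DGUOK, PHACTR2, NME4 and STARD7, with ratios between 1.09 and 1.21.

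**Figure D1:**
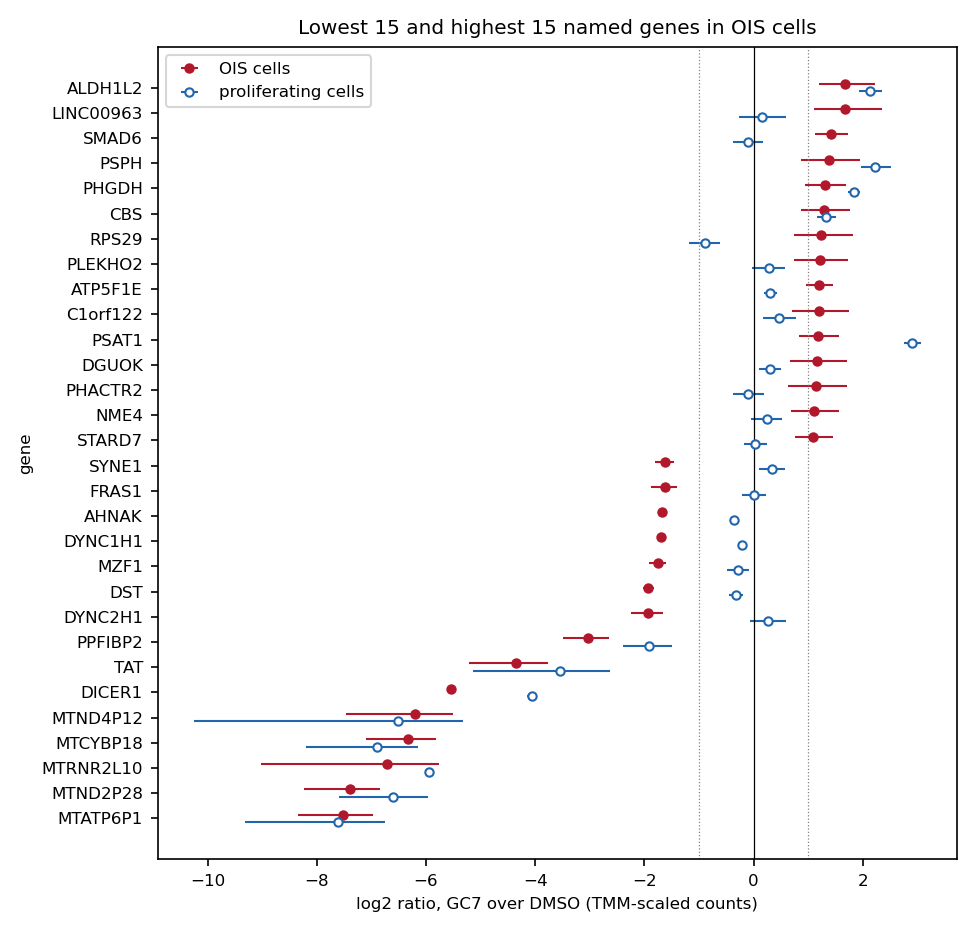
Log2 ratio of GC7 over DMSO (horizontal axis) of the 15 lowest and the 15 highest named genes, in OIS cells (filled points) and proliferating cells (open points); bars are 95% counting intervals and each point is 1 pair of libraries. The nuclear copies of mitochondrial genes and DICER1 were low in both states. The long genes DST, DYNC1H1, AHNAK and SYNE1 were low in OIS cells and lay between -0.37 and 0.34 in proliferating cells.

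In OIS cells, among features of at least 500 exonic bases, the median ratio was lower in the bins of longer features. Among features with at least 200 OIS counts, the median log2 ratio was 0.33 for the 52 features of 500 to 1000 bases, 0.31 for the 306 features of 1000 to 2000 exonic bases, 0.09 for the 1289 of 2000 to 4000, -0.01 for the 1301 of 4000 to 6000 and -0.09 for the 977 of 6000 to 8000. It was -0.21 for the 914 features of 8000 to 12000 bases and -0.36 for the 322 features of 12000 bases or more. The 55 features under 500 bases did not follow this order, with a median of 0.00, 8 called lower (14.5%) and 2 higher. In proliferating cells the medians of the bins ran from 0.08 to -0.07. Of the 322 longest features 37 were called lower (11.5%) and 1 higher, and 78.6% had a ratio below 0. In comparison, 4 of the 306 features of 1000 to 2000 bases were lower (1.31%) and 6 higher, and 1 of the 1289 features of 2000 to 4000 bases was lower. Over all 11128 features, without the minimum of 200 OIS counts, 2.75% were lower and 3.53% higher.

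Across the 5161 features with at least 500 exonic bases and 200 OIS counts, the Spearman correlation of the ratio with exonic length was -0.40 in OIS and -0.08 in proliferating cells. These correlations are across genes of the same libraries, and genes are not independent replicates. Against the summed count of the state's libraries they were -0.13 and -0.03. With at least 1000 OIS counts the median of the longest features was -0.45, with 17 of 97 lower (17.5%) and none higher. That of the 75 features of 1000 to 2000 bases was 0.34, with 1 lower (1.33%) and 1 higher. That of the 15 features under 500 bases was -0.45, with 4 lower (26.7%) and none higher. Exonic length here is the union of all annotated exons with UTRs and not the coding length. The length of the fragments and the digestion of each library were not measured in these files, and their part in the gradient was not tested. With a single library per condition, GC7 and a difference in preparation between the 2 OIS libraries cannot be told apart.

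**Figure D2:**
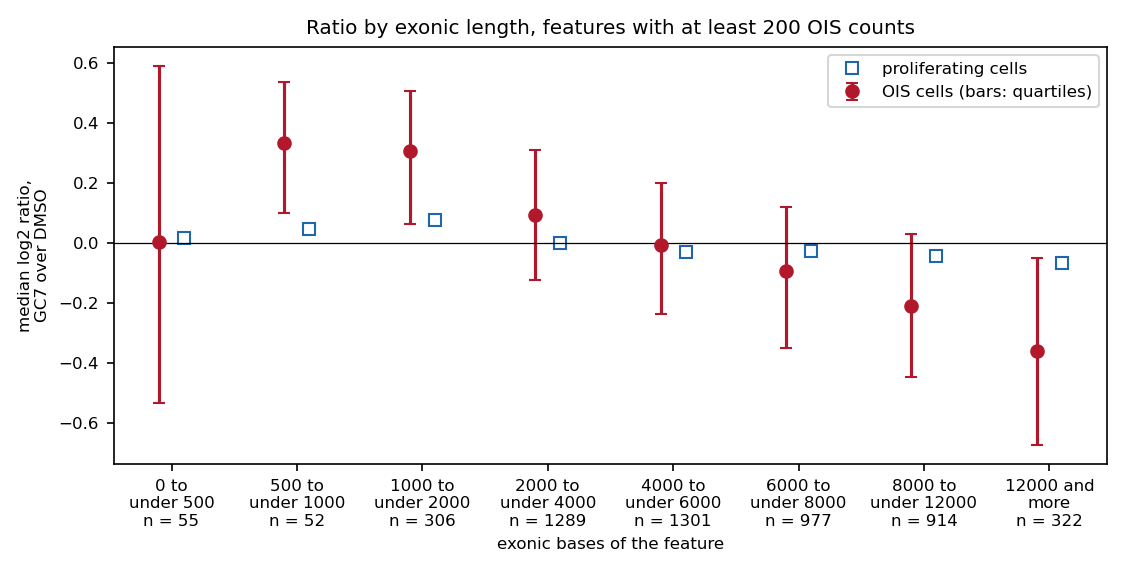
Median log2 ratio of GC7 over DMSO (vertical axis) for features grouped by exonic bases (horizontal axis), among features with at least 200 OIS counts; filled points are OIS cells with bars from the lower to the upper quartile over features, and open squares are proliferating cells. The OIS medians run from 0.33 at 500 to 1000 bases to -0.36 at 12000 bases or more, with 0.00 below 500 bases, and the proliferating medians from 0.08 to -0.07.

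When amino acids run short or proteins misfold, kinases phosphorylate eIF2 and the transcription factor ATF4 is made. ATF4 switches on genes for amino acid uptake and synthesis, tRNA charging and feedback. Among the lists of these genes, the serine enzymes and the ATF4-axis regulators had medians above 0 with GC7 in both states, while the amino acid genes and tRNA synthetases had medians near 0 in OIS cells. Of 9 serine and one-carbon enzymes measured, 4 were called higher and none lower in OIS cells, against 3.53% higher over all features, with a median of 0.87. In proliferating cells 5 were higher (3.46% of all features were) and the median was 1.85. PHGDH, which catalyses the first step of serine synthesis, had 71 counts with DMSO and 364 with GC7 in OIS cells (1.30, interval 0.94 to 1.70), against 1.85 in proliferating cells. PSAT1, the next enzyme, had 77 and 363 counts (1.18, interval 0.83 to 1.56), against 2.90. PSPH, which completes the pathway, had 35 and 190 (1.38), against 2.23. ALDH1L2, a mitochondrial enzyme of folate metabolism, had 38 and 255 counts (1.68, interval 1.20 to 2.23) and was nearly as high in OIS as in proliferating cells (2.13, interval of the difference -0.98 to 0.07). All 4 had more than 2 times the scaled level in the OIS GC7 library, from low counts in OIS DMSO cells. The list did not rise as a whole in OIS cells. At its low end MTHFD1 lay at -0.33 with an interval below 0, SHMT1 at -0.004, MTHFD1L at 0.03 and SHMT2 at 0.18.

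Of 19 regulators on the ATF4 axis measured, 3 were called higher in OIS cells (3.53% of all features were) and 14 in proliferating cells (3.46%), and none was lower in either. The medians were 0.52 and 2.03. TRIB3, a pseudokinase that damps ATF4, had 22 and 118 counts in OIS cells (1.35), against 3.17 in proliferating cells. EIF4EBP1, which holds back cap-dependent translation, had 57 and 253 (1.09), against 2.0, and JDP2, a bZIP repressor, had 13 and 59 (1.10), against 0.85. NUPR1, a stress-induced chromatin protein, had 0 and 3 counts in OIS cells, too few to give a ratio. SESN2, a leucine sensor that restrains mTORC1, had 118 and 233 counts (-0.07, interval -0.39 to 0.27), while in proliferating cells it had 54 and 692 (3.0), so the states differed by -3.06 (interval -3.57 to -2.55). The ratio in OIS cells was below that in proliferating cells beyond the counting interval for 13 of the 19 regulators and above it for none.

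Amino acid transporters and synthetic enzymes were split in OIS cells. Of 20 measured, 1 was higher, near the 3.53% of all features, and none lower, with a median of 0.06. In proliferating cells 10 were higher, where 3.46% of all features were, with a median of 1.02. CBS, the enzyme that joins homocysteine and serine, was the one higher in OIS cells, with 51 and 260 counts (1.29), close to the 1.34 of proliferating cells. ASNS, asparagine synthetase, had 94 and 347 counts (0.83), against 2.70, and its name passed only the later form of the position check. SLC7A5, a transporter of large neutral amino acids, had 582 and 1897 (0.66), against 1.45. Below 0 lay SLC7A1, the carrier of basic amino acids, with 4938 and 6259 counts (-0.71), and SLC7A11, the cystine carrier, with 3317 and 5310 (-0.37), against 1.34 in proliferating cells. Of 20 cytosolic tRNA synthetases none was called in OIS cells (median -0.03). In proliferating cells 4 were higher, beside 3.46% of all features (median 0.57). YARS1 was the highest in OIS cells, with 345 and 1043 counts (0.55), and VARS1 the lowest, with 136 and 170 (-0.72).

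Genes of the antioxidant factor NRF2 showed a like split. Of 26 measured, 1 was higher in OIS cells, near the 3.53% of all features (median -0.03). In proliferating cells 7 were higher, where 3.46% of all features were (median 0.36). HMOX1, which breaks down heme, had 93 and 123 counts in OIS cells (-0.64, interval -1.05 to -0.24), against 1.18 in proliferating cells. GCLC, the rate-limiting enzyme of glutathione synthesis, had 58 and 76 (-0.65), against 1.27. GPX1, a selenium-dependent peroxidase, was the one called higher, with 227 and 943 counts (1.0, interval 0.80 to 1.22), on the limit of 2-fold, and that call was lost with DESeq2 size factors or a prior count of 5.

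**Figure D3:**
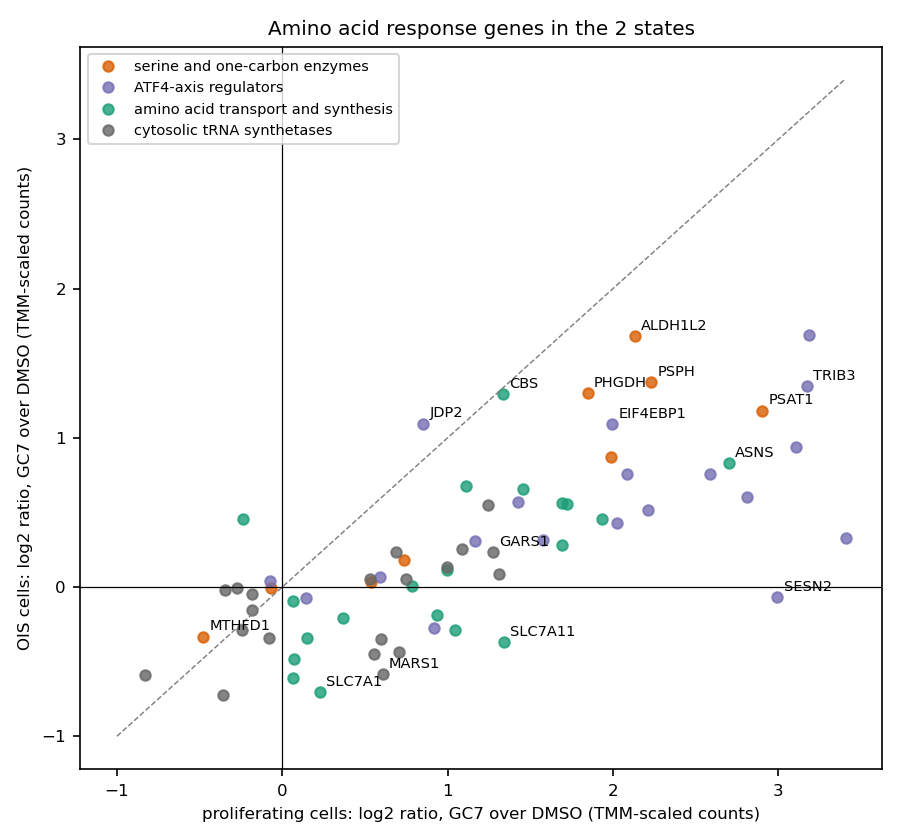
Log2 ratio of GC7 over DMSO in OIS cells (vertical axis) against that in proliferating cells (horizontal axis) for the serine, ATF4-axis, amino acid and tRNA synthetase genes; each point is a gene, colours give the list and the dashed line marks equal ratios. Most points lie right of the dashed line, with SESN2 at -0.07 in OIS against 3.0 in proliferating cells.

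ATF4 pairs with C/EBP proteins on a composite element whose core reads TGATGCAA. RefSeq promoters (GRCh38.p14, 250 bases before to 50 after each start, any start of a gene, both strands) were searched for it, to show the element beside the values of the genes that carry it. Of 27305 genes with a promoter, 295 held it (1.08%), and of the 944 named features with one 20 did (2.12%). It was found in 6 of 16 cytosolic tRNA synthetases (37.5%), 3 of 14 amino acid genes (21.4%), 3 of 16 ATF4-axis regulators (18.8%) and 1 of 6 serine and one-carbon enzymes. These lists gather kinds of genes that ATF4 is known to switch on, so such shares say nothing about the GC7 ratios. The core was held by 2 of 74 named features higher in OIS cells (2.7%) and 1 of 86 lower (1.16%), beside 2.12% of all named features. The looser core TGATGNAA, which includes the first, was in 7 of 14 amino acid genes (50%) against 1217 of all 27305 (4.46%). A match is a description of the letters and not a site, and the windows of PHGDH and PSAT1 held neither. Stretches upstream of the start of 4 genes follow, chosen after their values were seen, with the match in capitals on the gene's strand. ASNS lies on the minus strand at chr7:97872443-97872502, CEBPG on the plus strand at chr19:33374045-33374104, CHAC1 on the plus strand at chr15:40953236-40953295 and AARS1 on the minus strand at chr16:70289660-70289719.
ASNS: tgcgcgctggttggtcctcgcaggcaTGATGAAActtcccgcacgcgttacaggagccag
CEBPG: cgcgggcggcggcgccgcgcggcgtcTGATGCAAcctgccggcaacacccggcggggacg
CHAC1: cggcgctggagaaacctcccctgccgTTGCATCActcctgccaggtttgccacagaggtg
AARS1: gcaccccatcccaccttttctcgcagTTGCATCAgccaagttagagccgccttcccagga
ASNS holds the looser core, CEBPG the full core, and CHAC1 and AARS1 the full core read on the opposite strand. CHAC1, which degrades glutathione, had 538 counts with DMSO and 1878 with GC7 in OIS cells (0.75, interval 0.62 to 0.90) and 237 and 2267 in proliferating cells (2.59). CEBPG, the C/EBP partner of ATF4, had 31 and 80 counts in OIS cells (0.31), against 1.58, and AARS1, alanyl-tRNA synthetase, 633 and 1438 (0.14), against 0.99. None of these 4 was called in OIS cells with TMM scaling, though ASNS was with total count scaling (1.02), and ASNS, CEBPG and CHAC1 were called higher in proliferating cells. All 4 had ratios above 0 in OIS cells, but other genes with a match lay on both sides of 0 there. MARS1, with the full core, lay at -0.58 and SLC7A1, with the looser core, at -0.71. CARS1 and JDP2, with the full core, lay at 0.25 and 1.10.

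Ribosomal protein genes, whose mRNAs start with a pyrimidine tract that ties their translation to mTORC1, lay slightly above 0 in OIS cells and below 0 in proliferating cells. Of 46 large subunit proteins none was called in OIS cells (RPL29 was with total count or upper quartile scaling), 38 had a ratio above 0 and the median was 0.25. In proliferating cells 6 were lower (2.08% of all features were), 1 was higher (3.46% of all features were) and the median was -0.57. The OIS ratio exceeded the proliferating one beyond the counting interval for 36 of the 46 and fell short of it for none. RPLP2, a stalk protein of the large subunit, had 506 and 1527 counts in OIS cells (0.54, interval 0.40 to 0.69) and 1771 and 1800 in proliferating cells (-0.64). RPL27A had 89 and 301 (0.71), against -1.10. Of 30 small subunit proteins 2 were higher (RPS29 and RPS15A), beside 3.53% of all features. The 1 lower (RPS26, with 13 and 7 counts) was near the 2.75% of all features. Their median was 0.18, against 3 lower (2.08% of all features were) and a median of -0.68 in proliferating cells. These genes have many pseudogene copies, so their counts are uncertain. The median exonic length was 2940 bases for the large and 2780.5 for the small subunit proteins, against 4904 for all features. The part of length in these values was not tested.

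The mitochondrial ribosome is built from nuclear-encoded proteins. Of 48 proteins of its large subunit, 1 was called higher and 1 lower in OIS cells, beside 3.53% and 2.75% of all features. For 37 of the 48 the ratio was above 0, and the median was 0.30, against 0.12 in proliferating cells. MRPL12 was the one higher, with 7 and 35 counts, but 68.2% of its exonic bases overlap another feature, and MRPL54 was the one lower, with 43 and 42 (-1.06, interval -1.73 to -0.43). MRPL13 had 118 and 355 counts in OIS cells (0.54, interval 0.24 to 0.85), against -0.12 in proliferating cells. MRPL28 had 155 and 453 (0.50, interval 0.23 to 0.77), against -0.18, and MRPL37 had 143 and 359 (0.28, interval 0.00 to 0.57), against -0.22. MRPL9 had 27 and 78 counts (0.47), with 34.7% of its exonic bases overlapping another feature, and MRPL11 28 and 86 (0.56), under a name that passed only the later form of the check. Of 31 small subunit proteins none was called (CHCHD1 and MRPS31 were with total count scaling), 21 lay above 0 and the median was 0.17, against 0.11 in proliferating cells. MRPS30 had 110 and 276 counts (0.28, interval -0.04 to 0.61), and the lowest was PTCD3, with 191 and 226 (-0.80). Footprint counts per gene on the mitochondrial ribosomal proteins were thus near or slightly above the median of all features with GC7.

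Subunits of the respiratory chain encoded in the nucleus were arranged likewise. Of 37 subunits of complexes II to V, 35 had a ratio above 0 in OIS cells, with a median of 0.33, against -0.03 in proliferating cells. In OIS cells 1 of the 37 was called higher, near the 3.53% of all features, and none lower. For 23 of them the OIS ratio exceeded the proliferating one beyond the counting interval, and for 1 it fell short. UQCR10, a small subunit of complex III, had 193 and 722 counts (0.85, interval 0.62 to 1.09), while ATP5F1B, the catalytic subunit of ATP synthase, had 2317 and 4962 (0.05). Of 34 complex I subunits none was called (NDUFA3 was with total count scaling), with a median of 0.19 against -0.01. The median exonic length was 2288 bases for complexes II to V, 2369 for complex I and 2340 for the mitochondrial large ribosomal subunit, against 4904 for all features, and the part of length in these values was not tested. Factors that express mitochondrial DNA had a median of -0.11, which turned to 0.08 with total count scaling. Of the 27 measured, 1 was lower, near the 2.75% of all features, and none higher. That call, of FASTKD3 with 26 and 26 counts, was lost with total count or upper quartile scaling, a count filter of 1 or a prior count of 5. LRPPRC, which stabilises mitochondrial mRNAs, had 958 and 1120 counts (-0.82, interval -0.95 to -0.70), and its ratio in proliferating cells was -0.18. Replication-dependent histones, with 19 members measured, had a median of 0.60 in OIS and 0.14 in proliferating cells. In OIS cells 1 was higher, beside 3.53% of all features. The median exonic length of these histones was 777 bases, and the part of length was not tested here either.

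Collagens, the triple helical proteins rich in proline and glycine that fibroblasts secrete, were the list with the lowest median in OIS cells. Of 24 measured, 23 had a ratio below 0 and the median was -0.54, against 0.07 in proliferating cells. Yet only 1 was called lower in OIS cells, beside 2.75% of all features. That was COL14A1, with 9 and 1 counts, and COL15A1 had 2 and 0. For 16 of the 24 the OIS ratio fell short of the proliferating one beyond the counting interval, and for 1 it exceeded it. COL6A3 had 12211 counts with DMSO and 13588 with GC7 in OIS cells (-0.89, interval -0.93 to -0.86) and 13382 and 34508 in proliferating cells (0.70), under a name that passed only the later form of the check. COL4A2, of the basement membrane, had 11065 and 12320 (-0.89, interval -0.93 to -0.86), against 0.22. The chains of collagen I did not share this difference equally. COL1A2 had 27860 and 39237 counts (-0.55), against -0.15, and COL1A1 had 7316 and 13139 (-0.20), against -0.34.

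Other matrix proteins had a median of -0.22 over 27 members, with 1 lower, near the 2.75% of all features, and none higher. FBN1, the fibrillin of elastic microfibrils, had 3049 and 3281 counts (-0.94, interval -1.01 to -0.87), against 0.22 in proliferating cells. HSPG2, which encodes perlecan, had 1161 and 1215 (-0.98), against -0.07. VCAN, the proteoglycan versican, was the one called, with 31 and 13 counts (-2.19). At the other end BGN, the small proteoglycan biglycan, had 23 and 84 counts (0.80, interval 0.14 to 1.55). Of 19 contractile genes 2 were lower, beside 2.75% of all features, and none higher, with a median of -0.32 against -0.38, and both calls were lost with total count scaling. MYH9, the non-muscle myosin heavy chain, had 5715 and 5206 counts (-1.18, interval -1.24 to -1.13), against 0.00 in proliferating cells, and MYH10 had 249 and 240 (-1.10), against -0.89. In all, 6 of the 19 lay above 0, among them TPM4, a tropomyosin, with 301 and 881 counts (0.50). The exonic lengths of COL6A3, HSPG2 and FBN1 are 19624, 17694 and 16057 bases, and the part of length in the matrix values was not tested.

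Cholesterol genes, many of which the factor SREBP2 drives, differed between the states. Their list also holds genes outside cholesterol synthesis, such as FASN. Of 29 measured, 1 was lower in OIS cells, near the 2.75% of all features (median -0.21), and 12 in proliferating cells, where 2.08% of all were (median -0.92). FASN, fatty acid synthase, was the one in OIS cells, with 4240 and 3437 counts (-1.35, interval -1.42 to -1.29), and was as low in proliferating cells (-1.32). NPC1, which exports cholesterol from lysosomes and belongs to the lysosome list, had 3372 and 3052 (-1.19, interval -1.26 to -1.12), against 0.18. It was the only 1 called of the 29 measured on the lysosome list, near the 2.75% of all features. The median of that list was 0.004 in OIS cells. Of 27 DNA replication genes none was called in OIS cells (median -0.01, and -0.19 to 0.17 under other settings). In proliferating cells 8 were lower, where 2.08% of all features were (median -0.80).

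The gene that GC7 acts through was not called at the level of footprints. EIF5A had 381 counts with DMSO and 835 with GC7 in OIS cells (0.08, interval -0.09 to 0.26) and a ratio of 0.10 in proliferating cells. DHPS, the target of GC7, had 95 and 248 (0.33, interval -0.01 to 0.69), against -0.25, and DOHH, which completes hypusine, 20 and 70 (0.74, interval 0.03 to 1.55), against -0.21. The enzyme reaction that GC7 blocks leaves no trace in a footprint count, so these values do not check the treatment.

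Polyamine genes, which supply spermidine for hypusine, had a median of 0.04 and none lower, with 1 of 15 called higher, beside 3.53% of all features. That was OAZ1, the antizyme that polyamines induce through a ribosomal frameshift, with 34 and 161 counts (1.18, interval 0.65 to 1.77), against 1.14 in proliferating cells. SRM, spermidine synthase, had 150 and 423 (0.45, interval 0.18 to 0.73), against -0.04. ODC1, which starts polyamine synthesis, had 93 and 171 counts (-0.17), SMS 38 and 81 (0.04) and SAT1 51 and 120 (0.18), with intervals that all included 0. SMOX, which oxidises spermine, had 51 and 85 counts (-0.31, interval -0.83 to 0.22), while in proliferating cells it had 25 and 155 (1.93), a difference of -2.24 (interval -3.02 to -1.46).

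Senescence arrests the cycle through CDK inhibitors and is accompanied by a secretome of cytokines and growth factors (SASP). CDKN1A, the p53 target p21, had 1365 and 4034 counts in OIS cells (0.51, interval 0.43 to 0.60), against 0.57 in proliferating cells. CDKN2B, another CDK inhibitor, had 19 and 89 (1.15) and was called higher. It was the only 1 called of 28 CDK inhibitors and p53 targets measured, near the 3.53% of all features. The median of these 28 was 0.17 in OIS cells. CDKN2A was below the count filter, with 6 and 19. HRAS, the induced oncogene, had 3199 and 5467 counts (-0.28), and the transgene and the endogenous gene are not separated. GAPDH, often used as a reference, had 2527 and 5108 (-0.03).

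Only 3 of 16 SASP chemokines passed the count filter, and none of these was called. CXCL8 had 144 and 420 counts in OIS cells (0.49, interval 0.22 to 0.78), CXCL1 39 and 112 (0.47, interval -0.06 to 1.04) and CCL2 58 and 148 (0.30, interval -0.14 to 0.77). CCL2 had a ratio of -0.88 in proliferating cells. IL6 had 4 and 10 counts and CXCL11 had 0 and 0, so a change in them was not detectable at this depth. Of 16 interleukins and other secreted factors 1 was higher (3.53% of all features were) and none lower, with a median of 0.18. In proliferating cells 3 were higher (3.46% of all features were) and the median was 0.50. VEGFA, the endothelial growth factor and also a target of ATF4, was the one higher in OIS cells, with 23 and 124 counts (1.36), against 2.37. IL1B had 390 and 1069 (0.41, interval 0.24 to 0.58), IL1A 13 and 29 (0.10), MIF 7 and 10 and SPP1 226 and 389 (-0.26). GDF15, a stress-induced cytokine, had 387 and 1146 counts in OIS cells (0.52, interval 0.35 to 0.69) and 379 and 2795 in proliferating cells (2.21). PTX3, a soluble pattern receptor, had 2940 and 8728 (0.52, interval 0.46 to 0.58), against -0.59, and THBS1, a matrix glycoprotein, had 18657 and 27860 (-0.47), against -0.16. All 6 IGF binding proteins lay above 0, with a median of 0.46 and none called, and IGFBP7 had 3798 and 11142 counts (0.50), against 0.35.

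**Figure D4:**
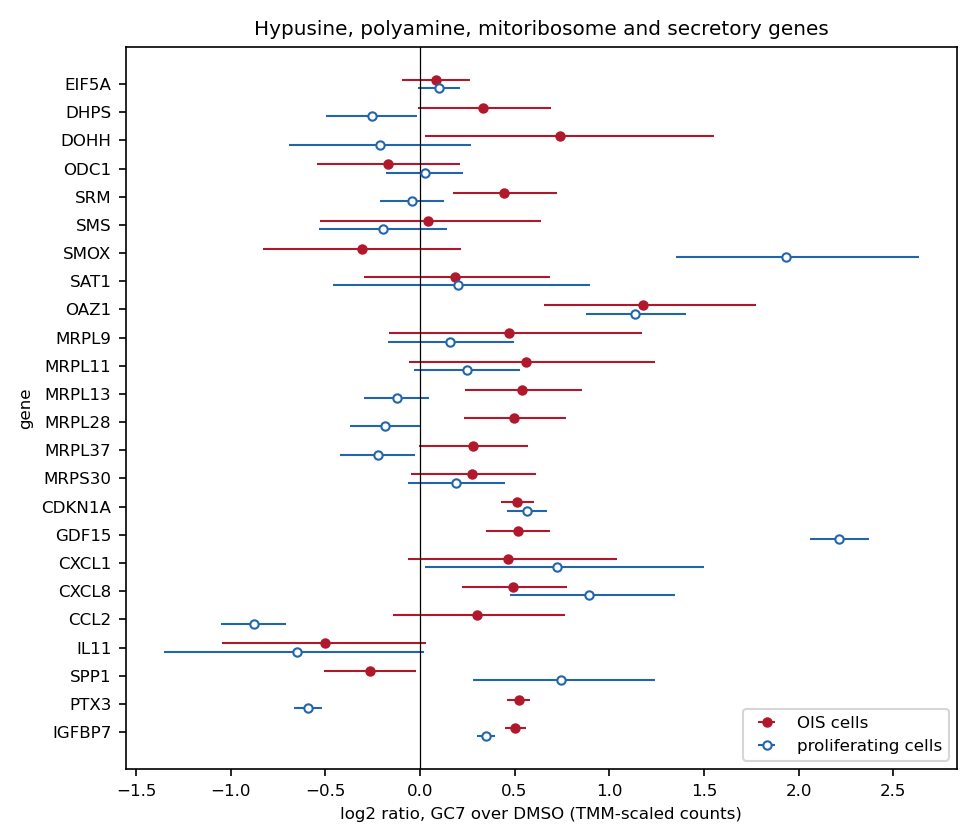
Log2 ratio of GC7 over DMSO (horizontal axis) with 95% counting intervals for genes of hypusination, polyamine metabolism, the mitochondrial ribosome and the secretome (vertical axis), in OIS cells (filled points) and proliferating cells (open points). EIF5A lies at 0.08 and 0.10, while SMOX lies at -0.31 in OIS and 1.93 in proliferating cells.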

How the data were processed

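Ribosome profiling libraries of 4 conditions were used, 1 library each. The authors made them with cycloheximide, RNase I digestion and monosomes from sucrose gradients, aligned with STAR 2.5.3a to hg19 and counted with featureCounts 1.5.1 and GENCODE annotation, per the labels and the file headers. The deposited values are whole-number counts per annotated feature, not normalized. The headers name no strand or multi-mapping option, so overlapping genes are uncertain. For 2 libraries (proliferating GC7 and OIS DMSO) the treatment entry contradicts the title, and the titles were followed.

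Features were kept from a summed count of 40 upwards (counts on nuclear features ranged from 2669516 to 6551992 per library), TMM factors came from edgeR 4.0.16 (R 4.3.3), a prior count of 1 scaled by library size was added, and 95% exact counting intervals (conditional binomial, Clopper-Pearson) were computed with scipy 1.17.1. The difference between states has a Wald counting interval. The ratio code was tested on simulated data. Protein sequences were not used here, so the planned grouping by tripeptides was not run.

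Members and lists were chosen with earlier results of these data known. Named genes were the 15 highest and 15 lowest named features with at least 200 OIS counts and 500 exonic bases, up to 4 highest and 4 lowest members of each list, and genes the study names. CEBPG, CHAC1 and AARS1, named for their promoters, were chosen after their values were seen. The gene table used here pairs no Ensembl number with a symbol. For 1277 numbers a symbol was therefore written from general knowledge and tested against the RefSeq gene order of GRCh38.p14. The first form of that check kept 1229. After its failures had been looked at, it was replaced by a form that kept 1266, of which 1226 pass both and 40 only the later one. Symbols of extreme features were written after their ratios were seen, and 5 were added late (among them MTCYBP18, which then entered the lowest 15), so 9975 features stay unnamed and 1 unnamed feature also lay beyond the 15th lowest. The bins of exonic length were chosen after seeing the values; finer bins were looked at first. The promoter search at first used only genes with a single start (in which no higher feature held the core) and was then repeated with any start counting, since the table holds several starts for many genes. Alternatives were DESeq2 1.42.0 size factors, total count, upper quartile, other filters, prior counts and folds.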

Additional observations from a re-analysis of the deposited data

Results flagged for a closer look

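For 2 named genes the ratios of GC7 over DMSO were called in opposite directions in the OIS and the proliferating cells. EGR1, an immediate early transcription factor, had 12 counts with DMSO and 51 with GC7 in OIS cells (log2 ratio 1.0) and 466 and 365 in proliferating cells (-1.02). SVIL, which encodes the actin-binding protein supervillin, had 191 and 144 counts in OIS cells (-1.45) and 4 and 20 in proliferating cells (1.49). The difference was not tested with replicates, and each gene has few counts in at least 1 library. The call of EGR1 in OIS cells was lost with DESeq2 size factors and with a prior count of 5.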

How the results depend on the processing

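No paired analysis was possible because each condition has 1 library, so leaving out a replicate could not be run either. With total count scaling 650 features were higher and 187 lower in OIS cells, so 77.7% of calls were higher in place of 56.2%. With a sum of at least 400 counts, 71 were higher and 94 lower of 6326 (43% higher), and with a sum of at least 1 count 482 were higher and 508 lower of 22700 (48.7% higher). A 1.5-fold limit gave 865 higher and 871 lower (49.8% higher). Among the 6158 features whose exons overlap no other, an alternative chosen after seeing the data, 225 were higher and 178 lower. DESeq2 size factors gave 376 and 319, the upper quartile 449 and 266, a prior count of 5 gave 326 and 252, features of at least 500 exonic bases 366 and 276, and a plain prior of 1, also added later, 369 and 314. Total count scaling also called 20 further named genes, among them ASNS, UQCR10, COX8A and MRPL57, and turned the sign of 24 of 360 named genes, none of them called, SESN2, GAPDH, ODC1 and COL6A2 among them, and of 10 list medians, including those of the tRNA synthetases, NRF2 genes and DNA replication. The medians of collagens (-0.56 to -0.35), serine enzymes (0.85 to 1.18), large ribosomal subunit proteins (0.23 to 0.44) and mitochondrial large subunit proteins (0.28 to 0.49) kept their sign in all 9 alternatives. The calls of MYH9 and MYH10 were lost with total count scaling, that of MRPL54 with total count scaling and a prior count of 5, and those of JDP2 and MRPL12 with a prior count of 5. Without a minimum of OIS counts, the difference between the medians of the longest features and those of 1000 to 2000 bases was -0.52, and it was -0.79 to -0.17 under the alternatives, all of them added later. Counts under about 50 per library leave intervals more than 1 wide on the log2 scale, as for DOHH and CXCL1.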
